A study of Mus musculus with 39 samples.

Results

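The liver-made plasma proteins and enzymes described here are 34 genes whose products are made mainly by hepatocytes. Some are secreted into blood, as albumin, apolipoproteins, clotting factors and protease inhibitors are, and others stay in the hepatocyte as enzymes. Members were taken by symbol: a gene counted when the array holds a probe set annotated to that symbol alone, and where several did, the one of highest mean signal was used. A probe set was found for 33 of the 34 genes, out of 18193 genes with such a probe set. Gc, the vitamin D carrier, had none of its symbol alone and was not analysed here. Of the 33, 29 passed the filter on dim probe sets (a log2 mean over all animals of 3.43 or more, which is a signal of 10.8), and Ahsg, Kng1, Fgb and Tat lay below it.

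The samples are lungs of 39 female outbred Crlj:CD1(ICR) mice, 1 array per animal, so p-values measure the spread between animals. Animals ate a powdered diet with permethrin, a pyrethroid insecticide, at 5000 or 10000 ppm, with isoniazid, an antituberculosis drug that the labels call a positive control for tumour induction, at 2500 ppm, or with neither (controls). They did so for 7 days (aged 11 weeks) or 14 days (aged 12 weeks), so duration and age cannot be told apart. Each of the 8 groups held 5 animals, except permethrin 10000 ppm at 14 days with 4. Values are log2 signals, quantile normalized across arrays, with SD over animals and SE from the model fitted to all 39 arrays. All 11 measured genes of lung epithelium passed the filter, with a mean log2 signal between 11.6 and 11.9 in every animal. In 7 arrays, all of 14-day animals, the log2 ratio of the 3' to the 5' control probe set of Gapdh, a measure of RNA integrity, was above 0.7.

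As background, hepatocytes hold large amounts of mRNA for albumin and the other main plasma proteins, and transcription factors such as HNF1, HNF4 and C/EBP drive many of these genes together. Several members are also transcribed outside the liver: retinol-binding protein in fat and other tissues, arginase 1 in macrophages, argininosuccinate synthase in many cells, vitronectin in smooth muscle and connective tissue, and liver-type fatty acid-binding protein in intestine. These are examples and not a full list, and the part of such transcription in the results below was not tested. In a bulk lung sample, fewer cells of a type and less RNA per cell cannot be told apart.

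The 250 bases before the start of the 3 members that the comparisons below turn on are shown first, for the hepatocyte motifs they hold or lack. The sequences are RefSeq's, build GRCm38.p6, written 5′ to 3′ on the gene's own strand, and 28 members had an entry. Capitals mark matches on either strand to 4 motifs: GTTAAT, 1 arm of an HNF1 site; CAAAGTCCA, a form of an HNF4 site; TTGCNNAA, a form of a C/EBP site; and TGACNNNGC, the core of an antioxidant response element. No match overlapped another in the windows shown. Fetub has 2 annotated starts.
Alb, chr5:90460620-90460869, plus strand: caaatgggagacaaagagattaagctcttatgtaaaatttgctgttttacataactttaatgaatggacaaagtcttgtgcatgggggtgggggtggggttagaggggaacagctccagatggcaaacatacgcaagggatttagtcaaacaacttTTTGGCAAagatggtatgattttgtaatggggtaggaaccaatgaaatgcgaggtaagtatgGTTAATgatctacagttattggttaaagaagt
Serpina1c, chr12:103904951-103905200, minus strand: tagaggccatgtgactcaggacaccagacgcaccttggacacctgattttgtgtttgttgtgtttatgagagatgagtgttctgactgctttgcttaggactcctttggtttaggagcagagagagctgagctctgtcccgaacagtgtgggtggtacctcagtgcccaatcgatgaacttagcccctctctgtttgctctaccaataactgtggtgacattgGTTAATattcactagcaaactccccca
Fetub, first start, chr16:22918132-22918381, plus strand: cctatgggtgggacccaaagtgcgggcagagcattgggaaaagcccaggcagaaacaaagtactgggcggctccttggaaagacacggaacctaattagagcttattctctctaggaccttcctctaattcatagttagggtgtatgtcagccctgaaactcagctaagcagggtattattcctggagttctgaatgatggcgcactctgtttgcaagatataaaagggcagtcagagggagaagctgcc
Fetub, second start, chr16:22919972-22920221, plus strand: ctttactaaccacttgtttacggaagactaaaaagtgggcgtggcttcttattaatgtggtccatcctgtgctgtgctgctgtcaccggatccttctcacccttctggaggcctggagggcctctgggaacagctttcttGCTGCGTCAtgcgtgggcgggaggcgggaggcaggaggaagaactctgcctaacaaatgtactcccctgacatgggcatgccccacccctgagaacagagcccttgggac
In Alb, GTTAAT begins 32 bases before the start and the C/EBP form 94 bases before it. In Serpina1c, GTTAAT begins 27 bases before the start. Neither window of Fetub held one of the 3 hepatocyte motifs, and the second held the antioxidant core 110 bases before its start. Among all 32851 promoter windows of the table, 6.43% held GTTAAT, 0.384% CAAAGTCCA, 9.56% TTGCNNAA and 10.2% TGACNNNGC. Of the 28 members, 8 held GTTAAT (Alb, Fabp1, Fga, Fgb, Gc, Pzp, Serpina1c and Vtn) and 1 held CAAAGTCCA (Cyp3a11). TTGCNNAA was held by 9 (Ahsg, Alb, Apoa2, Apob, Fabp1, Fga, Fgb, Hpx and Rbp4). TGACNNNGC was held by 6 (Ahsg, Ambp, Fabp1, Fetub, Hpx and Itih3). An entry was present for 17 genes among Alb and the members that follow it, as defined below. Of these 17, 4 held GTTAAT, 5 TTGCNNAA and 2 TGACNNNGC, and of the 11 others 4 held each of these motifs. The 11 others include Gc, Ahsg, Fgb and Tat, which were not tested, so they are not the members that do not follow Alb. Fgb and Gc are among their 4 with GTTAAT, Ahsg and Fgb among those with TTGCNNAA, and Ahsg among those with TGACNNNGC. A match is a description of the letters in this window and says nothing about binding.

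Albumin, the main protein of plasma, varied more between lungs of one group than nearly any other gene. Alb had log2 signals at 7 days of 8.99, 9.81, 6.54, 6.76 and 7.64 with permethrin 5000 ppm, 8.68, 7.31, 7.03, 7.81 and 6.11 with 10000 ppm and 8.52, 7.60, 9.47, 5.32 and 6.12 with isoniazid, against 8.64, 9.31, 6.39, 8.86 and 10.10 in controls. At 14 days Alb had 7.88, 8.73, 6.14, 7.38 and 8.31 with permethrin 5000 ppm, 8.50, 8.69, 9.10 and 7.15 with 10000 ppm and 6.02, 5.20, 6.35, 5.03 and 6.05 with isoniazid, against 7.46, 6.90, 8.36, 7.69 and 8.27 in controls. Every 7-day group held both high and low animals, and the 7-day groups overlapped widely. The 5 isoniazid animals at 14 days all lay below the 5 controls of that time. The highest animal exceeded the lowest 33.4-fold. The SD of Alb within groups was 1.13 on the log2 scale, at the 99.3rd percentile of the 13020 genes tested, whose median SD was 0.26. It was 1.39 at 7 days and 0.77 at 14 days.

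Whether the other members rise and fall with albumin from animal to animal was asked with a model holding the 8 group means and the log2 signal of Alb, so that group differences do not make the slope. A slope of 1 means proportional change. A member was said to follow Alb when its slope was above 0 with an adjusted p (limma, Benjamini-Hochberg over 13019 genes) under 0.05. Of the 28 other members tested, 20 followed Alb, and across all genes tested the percent called was 0.230 (30 of 13019 genes). Those 20 are among the 30, and the members were chosen with earlier results of these data known. The median slope was 0.57 among the 28 members and 0.01 among all genes. No gene had a slope below 0 past the threshold (0 by limma, and 879 genes of either sign had an unadjusted p under 0.05).

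**Figure D1:**
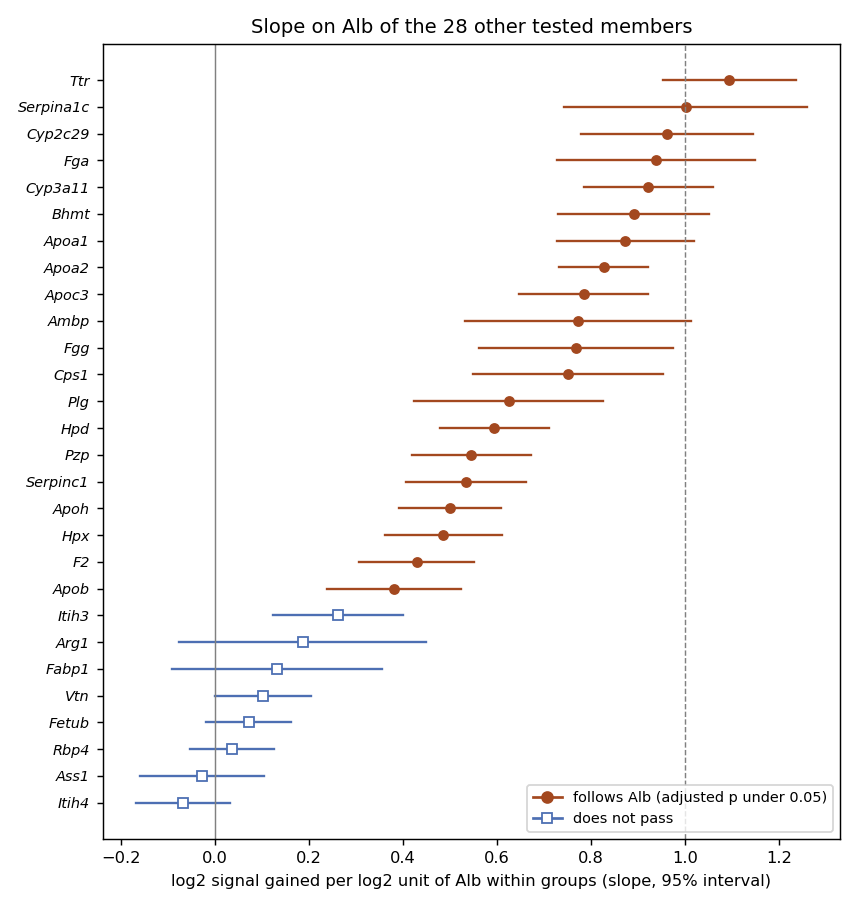
Slope of each of the 28 other tested members on Alb within groups (x axis, log2 signal per log2 unit of Alb), with 95% intervals. Filled circles are the 20 members past the adjusted threshold, from Apob at 0.38 to Ttr at 1.09, and open squares the 8 others, from Itih4 at -0.07 to Itih3 at 0.26. The dashed line at 1 marks proportional change.

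Among the carrier proteins, Ttr, which carries thyroxine and retinol-binding protein, had a slope of 1.09 (SE 0.07, 95% interval 0.95 to 1.24, adjusted p = 1.16e-13). Its log2 signal ranged from 3.26 to 9.13 over the 39 animals, a 58.4-fold span. Its 3 other probe sets had slopes of 1.12, 1.16 and 1.49. Ambp, the precursor of alpha-1-microglobulin and bikunin, had 0.77 (SE 0.12), and Hpx, which binds haem, had 0.49 (SE 0.06). Rbp4 and Fetub did not pass and are given further on. Ahsg, the liver glycoprotein fetuin-A, lay below the filter, with 26 of 39 animals under a log2 signal of 3.43. Fitted without the filter over 18192 genes, its slope was 1.17 (SE 0.19, adjusted p = 0.000456).

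All 5 apolipoproteins followed Alb. Apoa2, a protein of high-density lipoprotein, had the closest relation of any member, with a slope of 0.83 (SE 0.05, adjusted p = 5.64e-15). Apoa1, the main protein of high-density lipoprotein, had 0.87 (SE 0.07), and its 3 other probe sets had 1.14, 1.40 and 1.46. Apoc3, an inhibitor of lipoprotein lipase, had 0.78 (SE 0.07), and Apoh, which binds phospholipid, had 0.50 (SE 0.05). Apob, the backbone of very low-density lipoprotein, had the lowest slope that passed, 0.38 (SE 0.07, adjusted p = 0.00263). Apoh and Apob each have a dimmer second probe set, with slopes of 0.12 and -0.02. With the mean over all probe sets of a gene, Apoh had 0.31 and Apob 0.18, and neither passed (adjusted p = 0.608 for both).

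Of the protease inhibitors, 3 of the 5 tested followed Alb. Serpina1c, an alpha-1-antitrypsin of mouse, had a slope of 1.0 (SE 0.13, adjusted p = 2.46e-06). The mouse has several near-identical alpha-1-antitrypsin genes side by side, and how far its probe set also reads their transcripts was not tested. Pzp, an alpha-2-macroglobulin of mouse plasma, had 0.55 (SE 0.06), and Serpinc1, antithrombin, had 0.53 (SE 0.06). The heavy chains Itih3 and Itih4 did not pass. Kng1, kininogen, lay below the filter in 21 animals and on average, and had a slope of 0.92 (SE 0.16, adjusted p = 0.000785) without it, while its second probe set had 0.37.

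Of the clotting, fibrinolysis and adhesion genes, 4 of the 5 tested followed Alb. Fga and Fgg, which encode chains of fibrinogen, had slopes of 0.94 (SE 0.10) and 0.77 (SE 0.10). Fgb, the other fibrinogen chain, was below the filter and had 1.54 (SE 0.21, adjusted p = 8.79e-06) without it. Plg, plasminogen, had 0.62 (SE 0.10), and F2, prothrombin, had 0.43 (SE 0.06). Vitronectin, the adhesion protein of this group, did not pass.

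Of the enzymes of nitrogen and amino acid metabolism, 3 of 5 tested members followed. Bhmt, which makes methionine from homocysteine, had a slope of 0.89 (SE 0.08). Cps1, the first enzyme of the urea cycle, had 0.75 (SE 0.10), and Hpd, of tyrosine breakdown, had 0.59 (SE 0.06). Arg1 and Ass1, which are also urea cycle enzymes, did not. Tat, tyrosine aminotransferase, was below the filter in 32 animals and had a slope of 0.13 (SE 0.17, adjusted p = 0.946) without it. Both cytochrome P450 members followed, Cyp2c29 with 0.96 (SE 0.09) and Cyp3a11 with 0.92 (SE 0.07). Fabp1, which binds fatty acids in the cytosol, did not.

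The 95% interval of the slope held 1 for 8 of the 20 followers (Ttr, Serpina1c, Cyp2c29, Fga, Cyp3a11, Bhmt, Apoa1 and Ambp) and lay below 1 for the other 12. Within groups, Pearson's r with Alb ran from 0.70 (Apob) to 0.95 (Apoa2) and Spearman's rho from 0.71 to 0.93. The two-sided permutation p of r, unadjusted, was at most 3e-05 in 100000 draws within groups, which cannot give less than 1e-05. The adjusted p-values over all genes are those of the slopes. Without the 2 animals farthest from the median of Alb (isoniazid at 14 days replicate 4, control at 7 days replicate 5), r lay between 0.75 and 0.96. In the 20 animals at 7 days r ran from 0.83 to 0.97, and in the 19 animals at 14 days from 0.29 (Ambp) to 0.89 (Ttr). Fitted in the 7-day animals alone, all 20 followers passed, with slopes of 0.42 to 1.10. Fitted in the 14-day animals alone, all 20 slopes were above 0 (0.23 to 1.23) and 4 passed: Ttr, Apoa1, Apoa2 and Cyp3a11.

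**Figure D2:**
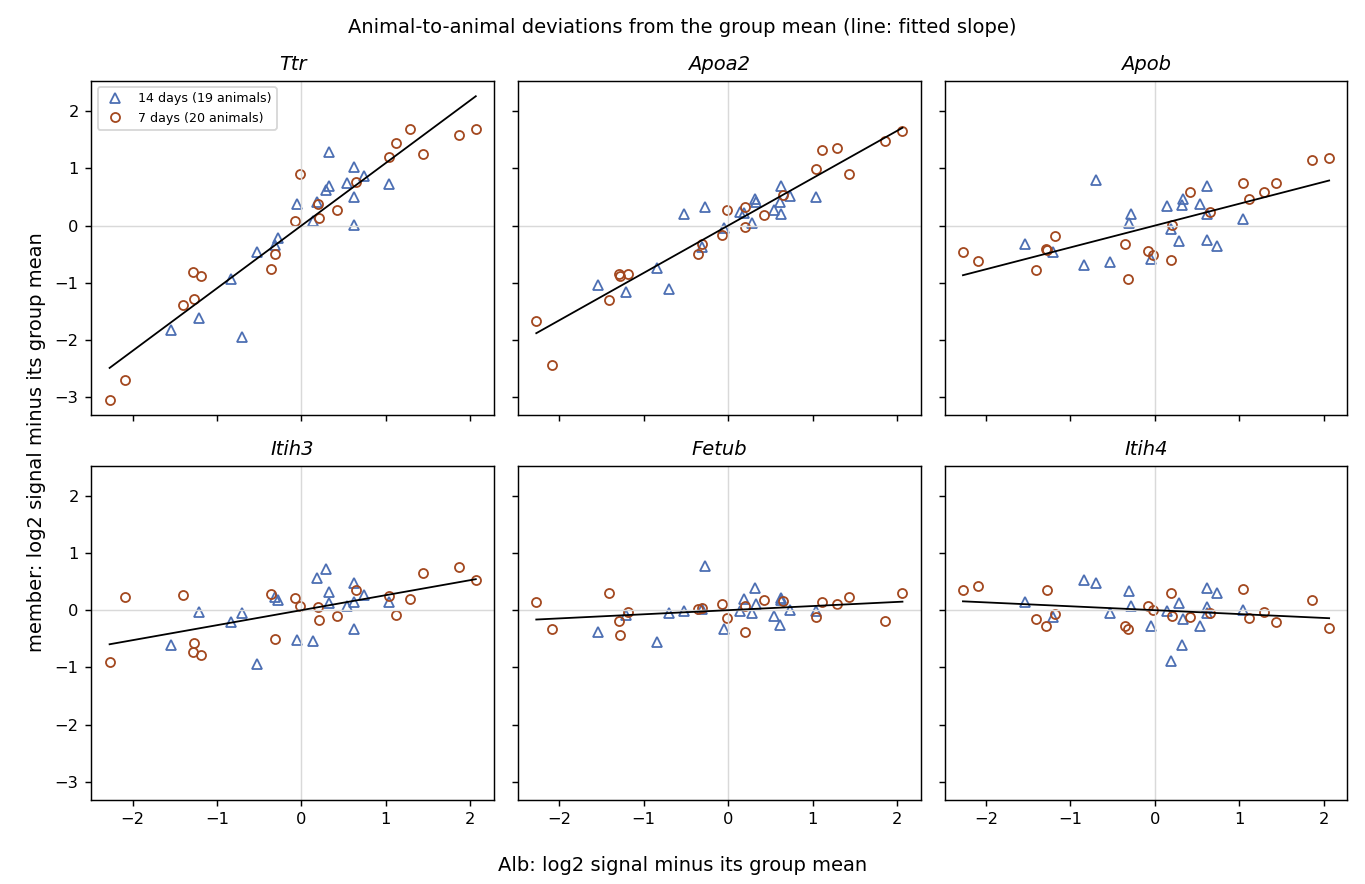
Each animal's log2 signal minus its group mean, for Alb (x axis) and for 6 members (y axis), with triangles for 19 animals at 14 days and circles for 20 at 7 days. The lines are the fitted slopes, 1.09 for Ttr, 0.83 for Apoa2, 0.38 for Apob, 0.26 for Itih3, 0.07 for Fetub and -0.07 for Itih4, and r is 0.95 for Apoa2 and 0.70 for Apob.

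The same animals carried the extremes of most followers. Among Alb and its 20 followers, the highest of the 39 animals was control replicate 5 at 7 days for 16 genes, permethrin 5000 ppm replicate 2 at 7 days for 3 and permethrin 10000 ppm replicate 3 at 14 days for 2. The lowest was spread more widely, with isoniazid replicate 4 at 7 days for 7 genes and control replicate 3 at 7 days for 4. High and low animals thus occurred within the same group. By group mean, the isoniazid animals at 14 days were the lowest of the 8 groups for 19 of the 21 genes (not Hpx or Pzp). The controls at 7 days were the highest for 16.

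**Figure D3:**
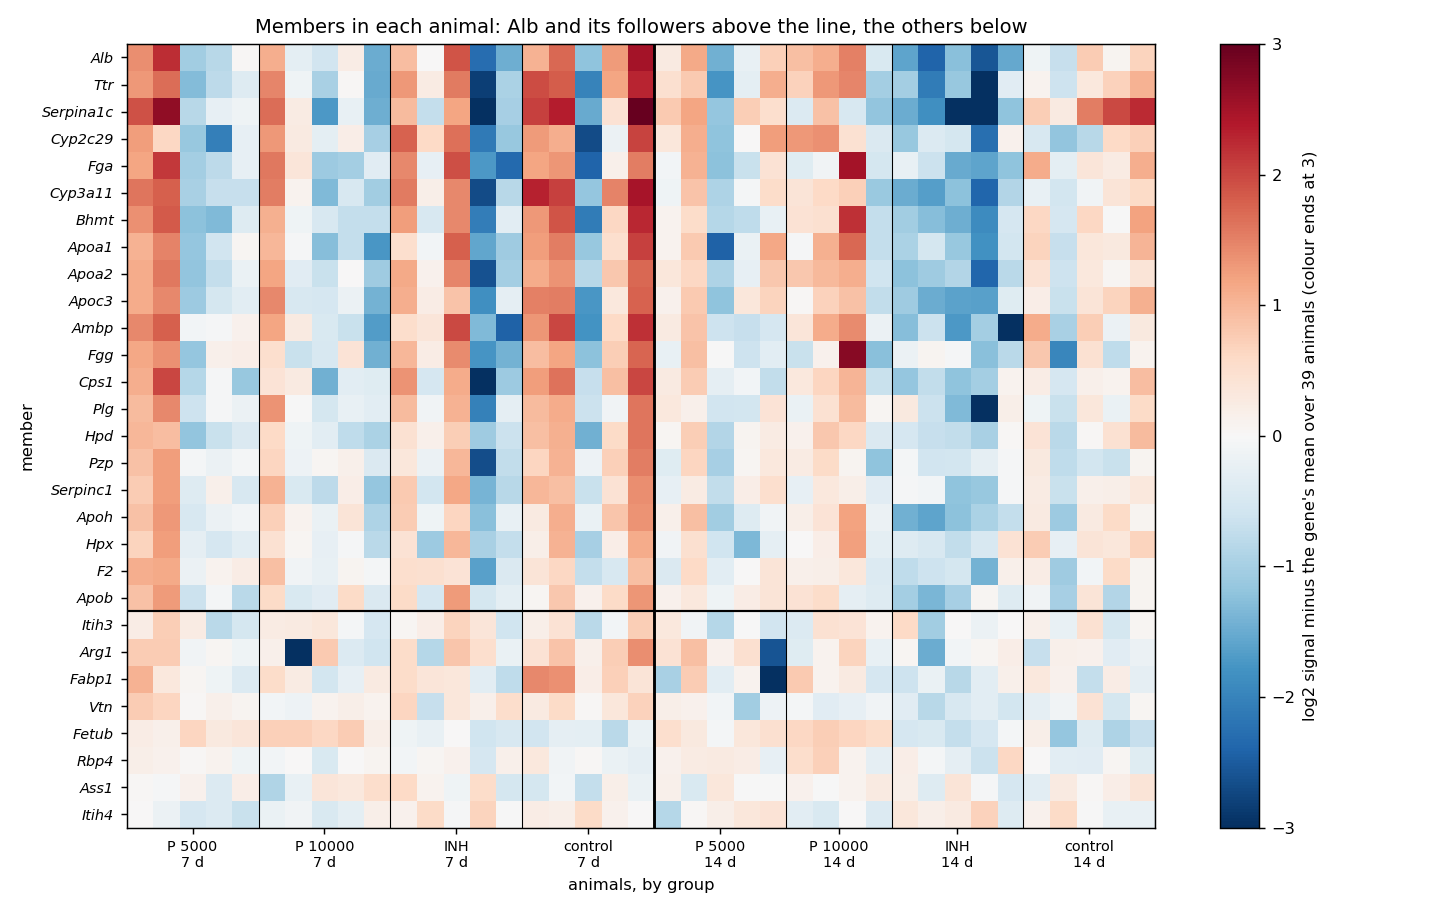
Log2 signal of the 29 tested members in each of 39 animals minus the gene's mean over all animals (colour, from -3 to 3), animals ordered by group along the x axis. Alb and its 20 followers stand above the line and form vertical bands, red in control replicate 5 at 7 days and blue in isoniazid replicate 4 at 7 days. Below the line, Arg1 (4.96) and Itih3 (4.48) are also highest in that control animal.

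Of the 8 tested members that did not follow Alb, Itih3, a heavy chain that links to hyaluronan, came nearest. Its slope was 0.26 (SE 0.07, 95% interval 0.12 to 0.40, unadjusted p = 0.000502, adjusted p = 0.176). Itih3 had log2 signals at 7 days of 3.96, 4.46, 3.97, 2.92 and 3.20 with permethrin 5000 ppm, 3.98, 3.99, 4.07, 3.68 and 3.22 with 10000 ppm and 3.79, 3.93, 4.40, 4.09 and 3.13 with isoniazid, against 3.90, 4.17, 2.91, 3.66 and 4.48 in controls. At 14 days Itih3 had 4.05, 3.64, 2.88, 3.73 and 3.17 with permethrin 5000 ppm, 3.32, 4.19, 4.14 and 3.83 with 10000 ppm and 4.34, 2.68, 3.75, 3.56 and 3.75 with isoniazid, against 3.89, 3.52, 4.19, 3.21 and 3.80 in controls. All groups overlapped. Across the threshold from it stood Apob at 0.38. Itih3 passed with each array centred on its median (0.27, adjusted p = 0.0453), with array weights (0.28, 0.0279) and without isoniazid replicate 4 at 7 days (0.32, 0.0293).

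Itih4, the heavy chain that plasma kallikrein cleaves, had a slope of -0.07 (SE 0.05, adjusted p = 0.826). Itih4 had log2 signals at 7 days of 8.12, 7.94, 7.60, 7.69 and 7.43 with permethrin 5000 ppm, 7.90, 8.01, 7.65, 7.82 and 8.29 with 10000 ppm and 8.24, 8.68, 8.07, 8.79 and 8.09 with isoniazid, against 8.34, 8.28, 8.68, 8.23 and 8.12 in controls. At 14 days Itih4 had 7.25, 8.14, 8.28, 8.46 and 8.51 with permethrin 5000 ppm, 7.80, 7.66, 8.12 and 7.70 with 10000 ppm and 8.46, 8.29, 8.39, 8.80 and 7.72 with isoniazid, against 8.24, 8.69, 8.11, 7.89 and 7.90 in controls. The isoniazid animals at 7 days that were lowest in Alb (replicates 4 and 5) had an Itih4 of 8.79, the highest of that group, and 8.09. Against controls, Itih4 differed by -0.57 with permethrin 5000 ppm and -0.39 with 10000 ppm at 7 days (SE 0.20 each). At 14 days it differed by -0.04 and -0.34 (SE 0.20 and 0.21), and none of these passed. The F test among the 8 groups did not pass for Itih4 (adjusted p = 0.187), but did without the 7 arrays of high Gapdh ratio.

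Rbp4, the retinol carrier of plasma, had a slope of 0.04 (SE 0.04, 95% interval -0.05 to 0.13, adjusted p = 0.911). Its plasma partner Ttr had an interval from 0.95 to 1.24, so the intervals did not overlap. Rbp4 had log2 signals at 7 days of 8.43, 8.37, 8.27, 8.34 and 8.12 with permethrin 5000 ppm, 8.17, 8.26, 7.78, 8.27 and 8.33 with 10000 ppm and 8.16, 8.30, 8.36, 7.74 and 8.39 with isoniazid, against 8.57, 8.14, 8.29, 8.06 and 7.97 in controls. At 14 days Rbp4 had 8.38, 8.48, 8.52, 8.46 and 7.99 with permethrin 5000 ppm, 8.78, 8.95, 8.35 and 7.98 with 10000 ppm and 8.44, 8.18, 7.97, 7.61 and 8.88 with isoniazid, against 8.25, 7.93, 7.91, 8.30 and 7.88 in controls. Groups overlapped throughout, and the SD within groups was 0.29, at the 58.5th percentile of all genes.

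Vtn, an adhesion protein of plasma and matrix, had a slope of 0.10 (SE 0.05, adjusted p = 0.740), and its second probe set had -0.02. Vtn had log2 signals at 7 days of 7.38, 7.26, 6.65, 6.77 and 6.71 with permethrin 5000 ppm, 6.53, 6.47, 6.74, 6.79 and 6.73 with 10000 ppm and 7.26, 5.92, 6.97, 6.77 and 7.14 with isoniazid, against 6.89, 7.18, 6.66, 6.96 and 7.31 in controls. At 14 days Vtn had 6.81, 6.74, 6.55, 5.58 and 6.46 with permethrin 5000 ppm, 6.57, 6.27, 6.38 and 6.51 with 10000 ppm and 6.27, 5.79, 6.14, 6.30 and 6.06 with isoniazid, against 6.34, 6.52, 7.05, 6.08 and 6.67 in controls. The isoniazid animals at 14 days had the lowest mean and the 7-day controls the highest, with an adjusted F test p of 0.0655. It passed when isoniazid replicate 2 at 7 days (adjusted p = 0.0160) or permethrin 5000 ppm replicate 4 at 14 days (0.0451) was left out.

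Arg1, which splits arginine into urea and ornithine, had a slope of 0.19 with a wide interval, -0.08 to 0.45 (adjusted p = 0.817). Arg1 had log2 signals at 7 days of 4.33, 4.33, 3.46, 3.64 and 3.43 with permethrin 5000 ppm, 3.73, 0.53, 4.36, 3.15 and 2.97 with 10000 ppm and 4.11, 2.71, 4.39, 4.07 and 3.38 with isoniazid, against 4.01, 4.42, 3.71, 4.31 and 4.96 in controls. At 14 days Arg1 had 4.01, 4.47, 3.70, 4.06 and 0.98 with permethrin 5000 ppm, 3.20, 3.67, 4.25 and 3.34 with 10000 ppm and 3.62, 2.08, 3.48, 3.63 and 3.76 with isoniazid, against 2.88, 3.71, 3.70, 3.23 and 3.39 in controls. Single animals were far below the rest, as permethrin 10000 ppm replicate 2 at 7 days and permethrin 5000 ppm replicate 5 at 14 days were. The array of the latter animal was among those of high Gapdh ratio.

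Ass1, which joins citrulline and aspartate, had a slope of -0.03 (SE 0.06, adjusted p = 0.973). Ass1 had log2 signals at 7 days of 3.69, 3.61, 3.78, 3.23 and 3.85 with permethrin 5000 ppm, 2.75, 3.42, 4.02, 3.97 and 4.17 with 10000 ppm and 4.26, 3.75, 3.53, 4.19 and 3.13 with isoniazid, against 3.11, 3.56, 2.93, 3.83 and 3.45 in controls. At 14 days Ass1 had 3.80, 3.19, 3.98, 3.64 and 3.63 with permethrin 5000 ppm, 3.78, 3.63, 3.75 and 3.91 with 10000 ppm and 3.83, 3.27, 4.04, 3.62 and 3.16 with isoniazid, against 3.34, 3.93, 3.68, 3.84 and 4.04 in controls. These signals lay near the filter, and 10 of 39 animals were under it.

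Fabp1 had a slope of 0.13 (SE 0.11, 95% interval -0.09 to 0.35, adjusted p = 0.850), and its second probe set had 0.18. Fabp1 had log2 signals at 7 days of 9.27, 8.56, 8.29, 8.10 and 7.82 with permethrin 5000 ppm, 8.80, 8.48, 7.68, 8.0 and 8.51 with 10000 ppm and 8.80, 8.59, 8.58, 7.91 and 7.48 with isoniazid, against 9.68, 9.61, 8.44, 8.94 and 8.62 in controls. At 14 days Fabp1 had 7.26, 9.01, 7.92, 8.34 and 4.75 with permethrin 5000 ppm, 9.03, 8.34, 8.51 and 7.74 with 10000 ppm and 7.62, 8.03, 7.39, 7.92 and 8.39 with isoniazid, against 8.54, 8.37, 7.52, 8.45 and 7.97 in controls. Permethrin 5000 ppm replicate 5 at 14 days was the lowest animal for Fabp1. Its Alb was 8.31, the second highest of its group. This array was among those of high Gapdh ratio (1.34). Against controls at 14 days, permethrin 5000 ppm differed by -0.71 with the probe set used and by 0.13 with the second.

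Fetub, fetuin-B, which inhibits the protease ovastacin and is needed for female fertility in mice, had a slope of 0.07 (SE 0.04, 95% interval -0.02 to 0.16, adjusted p = 0.793). It was the member that separated permethrin animals from controls. Fetub had log2 signals at 7 days of 5.37, 5.30, 5.79, 5.45 and 5.52 with permethrin 5000 ppm, 5.86, 5.86, 5.77, 5.92 and 5.32 with 10000 ppm and 5.01, 4.93, 5.17, 4.54 and 4.67 with isoniazid, against 4.57, 4.87, 4.85, 4.33 and 4.94 in controls. At 14 days Fetub had 5.66, 5.45, 5.08, 5.49 and 5.63 with permethrin 5000 ppm, 5.77, 5.89, 5.79 and 5.69 with 10000 ppm and 4.63, 4.68, 4.42, 4.63 and 5.08 with isoniazid, against 5.32, 3.99, 4.76, 4.22 and 4.45 in controls. At 10000 ppm every animal lay above every control of its time. At 5000 ppm that held at 7 days, and at 14 days 1 permethrin animal, at 5.08, lay below the highest control, at 5.32.

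Against controls of the same time, Fetub was higher with permethrin 10000 ppm at 7 days, by 1.04 on the log2 scale (SE 0.18, fold 2.05, adjusted p = 0.00144). It was the only one of 29 members past the threshold, beside a percent called of 0.238 among all genes. With 10000 ppm at 14 days the difference was 1.24 (SE 0.19, fold 2.36, adjusted p = 0.000259), again the only member (percent called 0.215). With 5000 ppm at 14 days it was 0.91 (SE 0.18, fold 1.88, adjusted p = 0.0175, percent called 0.131), and with 5000 ppm at 7 days it was 0.78 (SE 0.18, fold 1.71, adjusted p = 0.114), which did not pass (0 members by limma, 2 at an unadjusted p under 0.05 beside 1.99% of all genes, percent called 0.0922). Over both times it was 1.14 at 10000 ppm (SE 0.13, adjusted p = 2.86e-07, percent called 0.499) and 0.85 at 5000 ppm (SE 0.13, adjusted p = 0.000149, percent called 0.223).

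With isoniazid, Fetub differed from controls by 0.15 at 7 days and 0.14 at 14 days (SE 0.18 each, adjusted p = 0.979 and 0.961). Permethrin 10000 ppm against isoniazid gave 0.88 at 7 days (SE 0.18, adjusted p = 0.0158, percent called 0.184) and 1.10 at 14 days (SE 0.19, adjusted p = 0.00169, percent called 0.200), with Fetub the only member called at both times. Between 10000 and 5000 ppm the difference was 0.26 at 7 days and 0.33 at 14 days (SE 0.18 and 0.19, adjusted p = 1.0 and 0.994). No member passed between the doses (0 by limma, 0 at an unadjusted p under 0.05 beside 2.07% of all genes at 7 days and 3.79% at 14 days, percent called 0). Nor did the permethrin effect on Fetub change between the times past the threshold (0.14 at 5000 ppm, SE 0.26, and 0.20 at 10000 ppm, SE 0.27, adjusted p = 1.0 for both, percent called 0). With Alb as a term in the model, Fetub at 10000 ppm stood at 1.13 at 7 days and 1.19 at 14 days (adjusted p = 0.000634 and 0.000436), the only member called each time, with a percent called of 0.215 at both times. Against isoniazid at 14 days it was 0.91 with Alb as a term (adjusted p = 0.138), no longer past the threshold.

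The call at 5000 ppm and 14 days depended on single animals. It was lost without control replicate 2 (0.77, adjusted p = 0.147), 4 (0.83, 0.0737) or 5 (0.89, 0.0624), or without permethrin replicate 1 (0.86, 0.0830), 4 (0.91, 0.0636) or 5 (0.87, 0.0715). Without the 7 arrays of high Gapdh ratio it was 0.71 (adjusted p = 0.675). The call against isoniazid at 7 days was lost without permethrin replicate 1 (0.85, adjusted p = 0.0617), 2 (0.85, 0.0598) or 4 (0.84, 0.0768), or without isoniazid replicate 4 (0.80, 0.0886) or 5 (0.83, 0.0758). At 5000 ppm and 7 days Fetub passed without control replicate 1 at 14 days (adjusted p = 0.0285). Both 10000 ppm calls against controls passed in all 39 fits that left out 1 animal. Fitted with only the compared groups, the call at 10000 ppm and 14 days was lost (1.24, adjusted p = 0.199). So were those at 5000 ppm and 14 days (0.91, adjusted p = 0.619) and against isoniazid at 7 days (0.88, 0.0749) and 14 days (1.10, 0.109). With each array centred on its median, the call at 5000 ppm and 14 days was also lost (0.87, adjusted p = 0.0891).

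**Figure D4:**
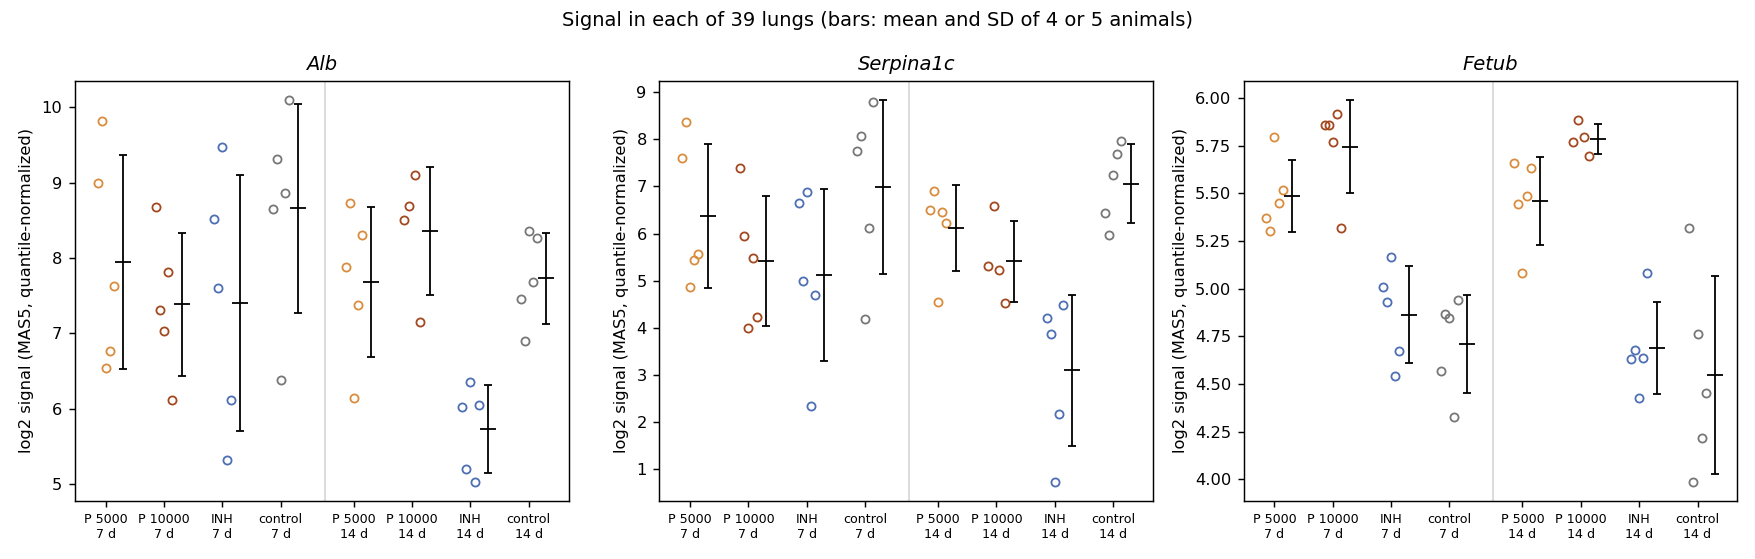
Log2 signal of Alb, Serpina1c and Fetub in each animal (open circles) of the permethrin (P, in ppm), isoniazid (INH) and control groups, with mean and SD beside them; the y axes differ in range and do not start at 0. The isoniazid animals at 14 days lie below the 14-day controls for Alb and Serpina1c, and the permethrin animals at 10000 ppm lie above the controls for Fetub at both times.

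Serpina1c was the other member with a difference past the threshold, lower with isoniazid. Serpina1c had log2 signals at 7 days of 7.61, 8.37, 4.88, 5.45 and 5.57 with permethrin 5000 ppm, 7.39, 5.96, 3.99, 5.48 and 4.24 with 10000 ppm and 6.65, 5.00, 6.89, 2.35 and 4.71 with isoniazid, against 7.76, 8.07, 4.19, 6.13 and 8.79 in controls. At 14 days Serpina1c had 6.50, 6.90, 4.55, 6.45 and 6.21 with permethrin 5000 ppm, 5.30, 6.59, 5.23 and 4.53 with 10000 ppm and 4.21, 3.87, 0.74, 2.18 and 4.49 with isoniazid, against 6.44, 5.98, 7.23, 7.68 and 7.95 in controls. The isoniazid animals at 14 days all lay below the controls of that time, with 2 of them, at 0.74 and 2.18, under the filter's signal. Over both times Serpina1c fell by 2.91 on the log2 scale with isoniazid (SE 0.59, fold 0.133, adjusted p = 0.0133), the only one of 29 members called, beside a percent called of 0.392. At 14 days the difference was -3.96 (SE 0.83, adjusted p = 0.0752) and at 7 days -1.87 (SE 0.83, adjusted p = 0.690). With Alb as a term the value over both times was -1.28 (SE 0.41, adjusted p = 0.259). Without the 7 arrays of high Gapdh ratio, 2 of them isoniazid and 2 control animals at 14 days, it was -2.50 (adjusted p = 0.174). At 14 days it passed without control replicate 3 at 7 days (adjusted p = 0.0297) or isoniazid replicate 4 at 7 days (0.0368). With permethrin 10000 ppm Serpina1c differed from controls by -1.58 at 7 days and -1.64 at 14 days (SE 0.83 and 0.88). At 5000 ppm it differed by -0.61 and -0.94 (SE 0.83 each), and no permethrin difference passed. With Alb as a term, 10000 ppm gave -0.30 at 7 days, -2.27 at 14 days (adjusted p = 0.0821) and -1.29 over both times (adjusted p = 0.173).

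The rest of the followers were on balance lower with isoniazid, without passing one by one. At 14 days their differences from controls ran from -1.94 (Ttr) to 0.02 (Pzp) apart from Serpina1c, with the probe sets used. The 3 other probe sets of Apoa1 gave -3.43, -2.88 and -3.34, where the one used gave -1.33. Those of Ttr gave -1.86, -2.32 and -2.62. The second probe sets of Apoh and Apob gave -0.21 and 0.26, where those used gave -1.20 and -0.45. Alb itself was at -2.0 (SE 0.67, fold 0.25, adjusted p = 0.631). Of 29 members, 25 were lower, with a median of -0.71 against 0.00 for all genes. None passed the adjusted threshold (0 by limma, percent called 0.0307), and 11 had an unadjusted p under 0.05, which 6.03% of all genes had. Isoniazid and control animals did not overlap for 5 members, all lower (Alb, Apoa2, Serpina1c, Bhmt and Cyp3a11), while 0.276% of all genes were lower without overlap. At 7 days 25 of 29 were lower, with a median of -0.67 against 0.01 for all genes, 0 past the threshold (percent called 0.0461) and 4 at an unadjusted p under 0.05 (6.52% of all genes). Over both times 16 of 29 had an unadjusted p under 0.05, beside 9.14% of all genes. Alb and its followers vary together from animal to animal, so none of these counts is one of independent observations.

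In heart muscle genes the 14-day controls had the lowest mean of the 8 groups. Over 16 genes it was 8.13 ± 0.66 with isoniazid at 14 days and 7.10 ± 0.65 in those controls (SD, n = 5 each). Their ranges overlapped, 7.47 to 9.04 and 6.27 to 7.93. Both permethrin groups at 14 days had 8.05, and the 7-day groups had 8.31 to 8.52. Within groups the correlation of Alb with the heart muscle mean was 0.12, and with the Gapdh ratio 0.25 (39 animals, as descriptions). The part of either in the isoniazid or permethrin differences was not tested.

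Once Alb stood in the model, the median group difference of its followers was nearer to 0 with isoniazid and with permethrin at 7 days. With isoniazid at 14 days their median was 0.29 with Alb as a term and -1.12 without it, and at 7 days 0.07 and -0.78. With permethrin 10000 ppm at 7 days it was -0.01 with Alb and -0.88 without. At 14 days it was farther from 0 at 10000 ppm, -0.31 with Alb and 0.20 without. At 5000 ppm and 14 days it was -0.11 and -0.14. For isoniazid no member passed with Alb in the model. At 14 days 4 of 28 had an unadjusted p under 0.05, beside 6.45% of all genes (0 past the threshold by limma, percent called 0.00768). At 7 days 1 of 28 did, beside 6.41% (0 past, percent called 0.0614), and over both times 3 of 28, beside 8.63% (0 past, percent called 0.146). At 14 days these were Serpina1c, lower (-1.96), and Pzp (1.11), Fgg (1.36) and Cyp2c29 (1.32), higher. At 7 days it was Cyp2c29 (1.05), and over both times Serpina1c (-1.28), Fgg (0.77) and Cyp2c29 (1.19). Slope and group difference come from one fit here, so a member that follows Alb is bound to lose part of a difference that Alb shares.

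**Figure D5:**
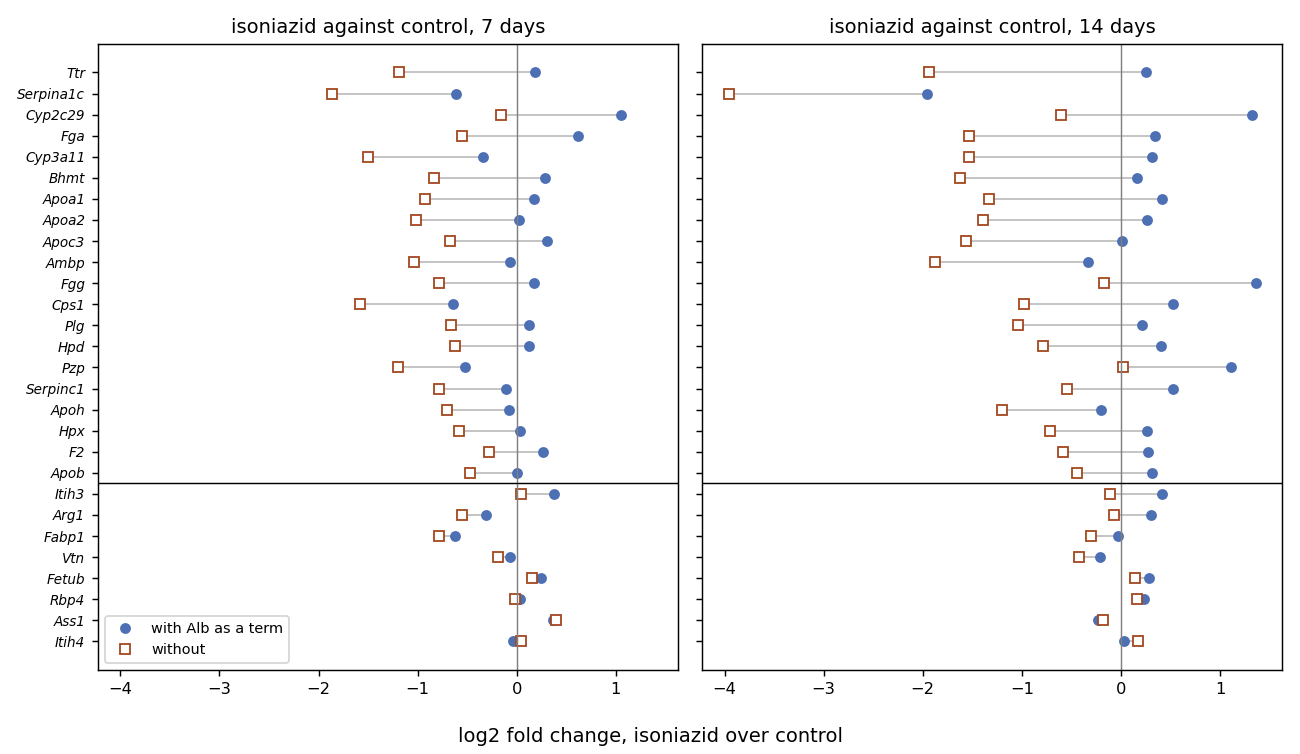
Log2 fold change of isoniazid over control animals for 28 members at 7 and 14 days, with Alb as a term (filled circles) and without it (open squares). Followers of Alb stand above the horizontal line in order of slope; at 14 days their median is 0.29 with Alb and -1.12 without.

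With permethrin, the followers and Alb were lower at 7 days without passing. Of the 21, 20 were below controls at 5000 ppm (median -0.56, against -0.01 for all genes) and all 21 at 10000 ppm (median -0.91, against -0.0017), where 3 of the 20 followers reached an unadjusted p under 0.05, beside 3.15% of the genes tested. At 14 days 14 of the 21 were lower at 5000 ppm (median -0.11, against -0.00481 for all genes) and 5 at 10000 ppm (median 0.21, against 0.02). In controls, 14 against 7 days, 18 of 21 were lower (median -0.60, against 0.02 for all genes), with no member past the threshold (0 by limma, 4 at an unadjusted p under 0.05 beside 13.9% of all genes, percent called 0.115). The 21 genes vary together from animal to animal, so these counts are not independent observations. For Alb the change of the 10000 ppm effect from 7 to 14 days was 1.90 (SE 0.97, adjusted p = 1.0), and no member passed in any of the 3 tests of such a change.

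Across all 8 groups, an F test passed for 2 of 29 members, Fetub (adjusted p = 4.40e-06) and Serpina1c (adjusted p = 0.0433), beside a percent called of 2.15 (280 genes). Fetub passed in all 39 fits that left out 1 animal, and Serpina1c in 18, with adjusted p between 0.0174 and 0.0890. Without the 7 arrays of high Gapdh ratio, Fetub and Itih4 passed and Serpina1c did not. For Alb the adjusted p was 0.117. It passed without control replicate 3 at 7 days (adjusted p = 0.0481), and without that animal Alb over both times of isoniazid was -1.91 (adjusted p = 0.0497).

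Outside the members, the 10 genes past the threshold for Alb, each with a slope above 0, included liver P450 enzymes (Cyp2c50 at 0.66, Cyp4a14 at 0.71, Cyp2c70 at 0.44), the calcium-binding Rgn (0.68), the liver-secreted class I molecule H2-Q10 (0.74), urate oxidase Uox (0.24), the glucuronosyltransferase Ugt2b36 (0.46) and the alpha-1-antitrypsin Serpina1b (0.31). The reductase Dhrs4 (0.17) and the kinase Oxsr1 (0.12), which are not liver-specific, completed them. Of further liver plasma proteins 1 of 15 tested followed (median slope 0.10), and of further liver enzymes and transporters 5 of 24 (median 0.15).

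In the remaining lists no gene passed. Beside the 0.230% of all genes that did, counts of 0 in lists of 1 to 16 genes are near the background. Acute-phase genes had 0 of 8 (median slope 0.03), of which Fgl1, a hepatocyte-secreted protein, had 0.41 (adjusted p = 0.382). Liver transcription factors had 0 of 5 tested (median 0.02), and of these the smallest p was that of Cebpb (0.08, adjusted p = 0.594). Genes of Kupffer cells and liver endothelium had 0 of 5 (median 0.07; Clec4g 0.11 and Lyve1 0.11), alveolar macrophages 0 of 7 (-0.01), lung epithelium 0 of 11 (-0.0017; Sftpc 0.02) and heart muscle 0 of 16 (0.09; Myh7 -0.06). Brown fat had 0 of 6 (0.04), white fat 0 of 5 (-0.04), skeletal muscle 0 of 4 (-0.04), mesothelium 0 of 8 (-0.03), red cells 0 of 2 (Slc4a1 0.41, adjusted p = 0.641; Alas2 0.15), and oesophagus and thymus 0 of 1 (Krt5 0.03). The median of all genes was 0.01. Fgl1 and Slc4a1 had slopes above the 0.38 of Apob, which passed.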

How the data were processed

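Lungs of 39 mice in 8 groups, as the sample titles give them, were each measured on an Affymetrix array from cRNA primed at the 3' end, per the labels' protocols. The submitters' processing notes name MAS5, without a version, as the tool behind the deposited signal intensity of each probe set. Each array's trimmed mean is 100.0 and array medians run from 17.4 to 26.2. Here the signals were taken to log2 and quantile normalized, and each gene was represented by its single-symbol probe set of highest mean. Genes in the upper 60% of probe sets by mean signal (log2 of at least 3.43) were tested, which left 13020. Quantile normalization removes shifts shared by most genes, and log2 of dim MAS5 signals is noisy. Models with 8 group means, and with Alb as a further term, were fitted to the 39 arrays with limma 3.58.1 (R 4.3.3; eBayes, trend). Files were read with the data.table package, version 1.17.8, and p-values were adjusted by Benjamini-Hochberg over all genes, with a threshold of 0.05. There were 17 comparisons. The number of arrays limits the precision. The steps were tested on simulated data. The members and gene lists were chosen with earlier results of these data known. Values per animal are printed for Alb, for members past a threshold in a comparison or F test, and for tested members that do not follow Alb; genes named outside the members are the 10 with the largest t on Alb and, per list, at most 4 with the smallest p. Alternatives were other scalings, filters, probe set rules, covariates and subsets of animals.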

Additional observations from a re-analysis of the deposited data

Results flagged for a closer look

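Among the 10 members whose animals are listed, 80 groups of 4 or 5 animals were examined for an animal set apart from the rest of its group by a gap large for the group's range (Dixon's test at 95%), and 6 stood apart, where chance gives about 1 in 20. Fetub in permethrin 10000 ppm replicate 5 at 7 days was at 5.32, below the other 4 at 5.77 to 5.92. Arg1 was at 0.98 in permethrin 5000 ppm replicate 5 at 14 days (others 3.70 to 4.47) and at 2.08 in isoniazid replicate 2 at 14 days (others 3.48 to 3.76). Vtn was at 5.58 in permethrin 5000 ppm replicate 4 at 14 days (others 6.46 to 6.81). Rbp4 was at 7.78 in permethrin 10000 ppm replicate 3 at 7 days (others 8.17 to 8.33) and at 7.99 in permethrin 5000 ppm replicate 5 at 14 days (others 8.38 to 8.52). All 6 lay below the rest of their group. Permethrin 5000 ppm replicates 4 and 5 at 14 days were among the arrays of high Gapdh ratio, and the other animals named here were not.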

How the results depend on the processing

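The same 20 followers passed with the deposited scaling, a pseudocount, no group means and cardiac signal as a covariate. They also passed without the arrays of high Gapdh ratio and in the 7-day animals alone. Median centring or array weights gave 21, with Itih3 added, and leaving out 1 animal gave 20 to 21. No filter gave 23 of 32 (Ahsg, Kng1 and Fgb added), the mean over probe sets 18 (without Apoh and Apob), and Ahsg in place of Alb 19 of 29 (without Plg and Cps1, with Alb). Only the upper 40% of probe sets tested 9 members and gave 5, and the 14-day animals alone gave 4. Slopes of followers moved both ways from the 7-day to the 14-day fit. Ambp went from 0.90 to 0.34 and Serpina1c from 1.10 to 0.65, while Ttr went from 1.06 to 1.23 and Apoa1 from 0.82 to 1.06. Slopes near 0 changed sign: Rbp4 to -0.01 (replicate block, -0.00535; Ahsg in place of Alb, -0.00482), Ass1 to 0.0079 (block) and to between -0.0699 and 0.0111 on leaving out 1 animal, Arg1 to -0.0171 (Ahsg) and Fabp1 to -0.142 (14-day animals alone).

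Counts of members called moved as follows, and where no cause is named it was not tested. For permethrin 5000 ppm at 7 days, 1 passed with the deposited scaling and with array weights, and 0 to 1 on leaving out 1 animal. For 5000 ppm at 14 days, 0 passed with median centring, without the arrays of high ratio and with only the compared groups, and 0 to 1 on leaving out 1 animal. For 10000 ppm at 14 days 0 passed with only the compared groups (Fetub 1.24, adjusted p = 0.199). Against isoniazid at 7 days 0 passed with only the compared groups, and 0 to 1 on leaving out 1 animal. At 14 days 0 passed with Alb as covariate (Fetub 0.91, adjusted p = 0.138), and with only the compared groups Fetub was lost there too (1.10, adjusted p = 0.109) while Alb passed (2.63, adjusted p = 0.0396). For isoniazid at 14 days 0 to 1 passed on leaving out 1 animal. For isoniazid over both times 0 passed without the arrays of high ratio, with only the compared groups and with Alb as covariate, and 1 to 2 on leaving out 1 animal. With the upper 40% of probe sets Fetub was not tested, and every count of permethrin calls and the count with Alb as covariate was 0. The F test gave 1 member with median centring, no filter, the upper 40% and the mean over probe sets, and 1 to 3 on leaving out 1 animal. With Alb as covariate, Fetub was the only member called in any of the 6 contrasts against controls of the same time. The count of members so called was 2 with median centring, a pseudocount, the replicate block and array weights, and 1 to 2 on leaving out 1 animal.

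Replicate numbers were not taken as pairs in the main fits. Of 29 pairs of same-numbered samples, 8 correlated above 0.1, a count that cannot exclude pairing. Against controls, the mean correlation of such pairs ran from -0.14 (permethrin 10000 ppm at 14 days) to 0.11 (permethrin 5000 ppm at 7 days). With the replicate block, isoniazid at 14 days had 1 member called, Serpina1c (-3.96, adjusted p = 0.0137). Dim signals limit Ambp, Cps1, Arg1, Itih3, Fga and Ass1, each with 10 or more animals under the filter.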
